A study of Mus musculus with 12 samples.

Results

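Annexins are a family of calcium-dependent phospholipid-binding proteins, and 9 of their genes (Anxa1 to Anxa8 and Anxa11) were followed across normal intestine and intestinal tumors of Min/+ mice. The probe sets were those that the annotation of the Affymetrix MG_U74Av2 array gives to 1 of these symbols. They numbered 11 of 12422 probe sets without controls and covered 8 genes, with 3 probe sets for Anxa1, 2 for Anxa7 and 1 for each of the others. The only probe set that names Anxa11 also names the gene models Gm2274 and Gm2260, so it is described as a shared probe set and not as Anxa11. Of the 11 probe sets, 10 had a mean high enough to be tested, and the second Anxa7 probe set did not.

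The 12 arrays held total RNA of male mice aged 91 days that all carried the Min allele of Apc, which makes mice develop many intestinal adenomas. There were 6 arrays of normal intestine and 6 of tumor. Each tissue was sampled on diet #1, diet #2 and diet #3, whose composition the labels do not give, and in each diet from a Dnmt+/- (heterozygous) and a Dnmt+/+ (wild type) source, with 1 array per combination. The 4 groups were normal Dnmt+/-, normal Dnmt+/+, tumor Dnmt+/- and tumor Dnmt+/+, each with 3 arrays, 1 per diet. A normal and a tumor array of the same diet and genotype shared a sample code. The labels do not say whether a code is 1 mouse or a pool, nor how tumors were dissected, so the p-values reflect only how these arrays vary, and that variation may be technical.

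Annexins share a core of repeated domains that binds acidic phospholipids, phosphatidylserine above all, when calcium rises. Through this binding they link membranes to the actin skeleton, help to reseal torn plasma membrane and take part in vesicle traffic. Some are also released: Anxa1 acts on formyl peptide receptors of leukocytes and dampens inflammation, and Anxa2 on the cell surface, with S100a10, gathers plasminogen and its activator. In the intestine Anxa2 and Anxa4 are abundant in the epithelium.

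The promoters of 4 annexins that were higher in tumor are shown here because the arrays also compared 2 genotypes of a DNA methyltransferase, and CpG dinucleotides are where such enzymes act. Methylation itself was not measured. Each sequence is the 250 bases before the transcription start, 5′ to 3′ on the gene's strand, from RefSeq (build GRCm38.p6), with CpG in capitals.
Anxa1: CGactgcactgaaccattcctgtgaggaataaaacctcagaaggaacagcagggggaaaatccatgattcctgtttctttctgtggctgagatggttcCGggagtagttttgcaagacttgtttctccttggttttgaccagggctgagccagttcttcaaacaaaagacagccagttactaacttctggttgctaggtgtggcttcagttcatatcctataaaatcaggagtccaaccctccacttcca
Anxa2: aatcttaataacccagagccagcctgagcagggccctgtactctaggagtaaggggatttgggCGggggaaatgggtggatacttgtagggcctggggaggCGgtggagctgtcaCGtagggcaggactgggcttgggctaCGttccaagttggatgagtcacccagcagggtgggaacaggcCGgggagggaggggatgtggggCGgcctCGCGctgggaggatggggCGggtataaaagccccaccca
Anxa5: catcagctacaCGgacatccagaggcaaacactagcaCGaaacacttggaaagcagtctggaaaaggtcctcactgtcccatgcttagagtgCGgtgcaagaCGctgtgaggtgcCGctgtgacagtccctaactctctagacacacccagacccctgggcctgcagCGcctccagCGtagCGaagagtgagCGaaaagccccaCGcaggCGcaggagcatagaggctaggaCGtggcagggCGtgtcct
Anxa8: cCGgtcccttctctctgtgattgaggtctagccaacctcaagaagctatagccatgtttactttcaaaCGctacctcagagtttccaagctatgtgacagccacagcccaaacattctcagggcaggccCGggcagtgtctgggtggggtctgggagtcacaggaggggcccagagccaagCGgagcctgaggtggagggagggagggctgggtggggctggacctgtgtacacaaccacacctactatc
The Anxa1 window (chr19:20390672-20390921, minus strand) held 2 CpG and the Anxa8 window (chr14:34085729-34085978, plus strand) held 4. The Anxa2 window (chr9:69453433-69453682, plus strand) held 9 and the Anxa5 window (chr3:36475888-36476137, minus strand) held 13. The median over all 32851 RefSeq promoter windows of this length was 6, and 18.8% of them held fewer CpG than Anxa1. The letters TATAAA began 32 bases before the start in Anxa1 and 17 bases before it in Anxa2, and 12.4% of all windows held them on either strand. The Anxa2 window also held GGGCGG, a GC box found in 32.7% of windows, and on the other strand TGACTCA, an AP-1 site found in 4.46%. None of the 4 windows held CTTTGAT or CTTTGAA, which are TCF/LEF motifs that share their first 6 letters and were in 3.21% and 4.46% of windows, or CCAAT, in 33.8%. Promoter windows were found for 7 of the 9 genes. CTTTGAA was present in 1 of the 2 windows of Anxa4 and in 1 of the 2 of Anxa7.

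The deposited intensity of the 4 diet #1 arrays came in another format, with 40.9% to 46.0% of values at exactly 50 and means of 306.4 to 402.7, while the means of the remaining 8 were 1000. Diet #1 and this format cannot be told apart, but every diet holds both tissues and both genotypes equally. After quantile normalization a value of 50 became 43.1 to 48.9 and the lowest 20% of values was set to 44.8 (5.48 in log2), and arrays at either limit are called "at a floor". The epithelial markers rose or did not pass the test: of 10, 5 were higher in tumor and 0 lower, and Epcam, Cdh1 and Vil1 did not pass (differences of 0.23, 0.06 and -0.12 in log2). Dnmt1, by its brighter probe set, read 611.7 and 491.1 in heterozygous against 776.4 and 688.0 in wild type normal intestine of diets #2 and #3. In tumor it read 1026.9 and 877.2 against 1483.1 and 1566.0. In diet #1 it was at 50 on 3 of 4 arrays, and over all arrays its genotype difference did not pass (-0.91 ± 0.36, SE, limma adjusted p = 0.719). A second Dnmt1 probe set was too dim to be tested. It read 76.0 and 107.2 in heterozygous against 71.6 and 70.3 in wild type normal intestine of diets #2 and #3. In tumor of these diets it read 88.4 and 12.1 against 132.2 and 15.4.

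The tissue comparison asked how annexin transcripts differ between normal intestine and adenoma. By limma at an adjusted p under 0.05, 9 of the 10 tested annexin probe sets, for 7 of 8 genes, were higher in tumor and 0 were lower. Over all 7453 probe sets tested, 33.5% were called in either direction, 17.0% as higher and 16.5% as lower in tumor. The median difference over the 10 annexin probe sets, where Anxa1 counts more than once, was 1.93 in log2, against -0.0084 over all probe sets. The tumor array was the higher one in all 6 code pairs for these same 9 probe sets, as it was for 16.5% of all probe sets. For 6 of the 10 the 6 tumor arrays lay above all 6 normal arrays, as for 5.82% of all. The 6 were the brighter Anxa1 probe sets, Anxa2, Anxa3, Anxa5 and Anxa8. Anxa8 and the dimmest Anxa1 probe set had normal means of 6.18 and 6.33 (log2), under the cutoff of 6.64 for testing. They entered these counts through their high tumor arrays. With no filter on low values 9 of 11 annexin probe sets passed. In such tissue RNA, fewer cells of a type and less RNA per cell cannot be told apart.

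**Figure D1:**
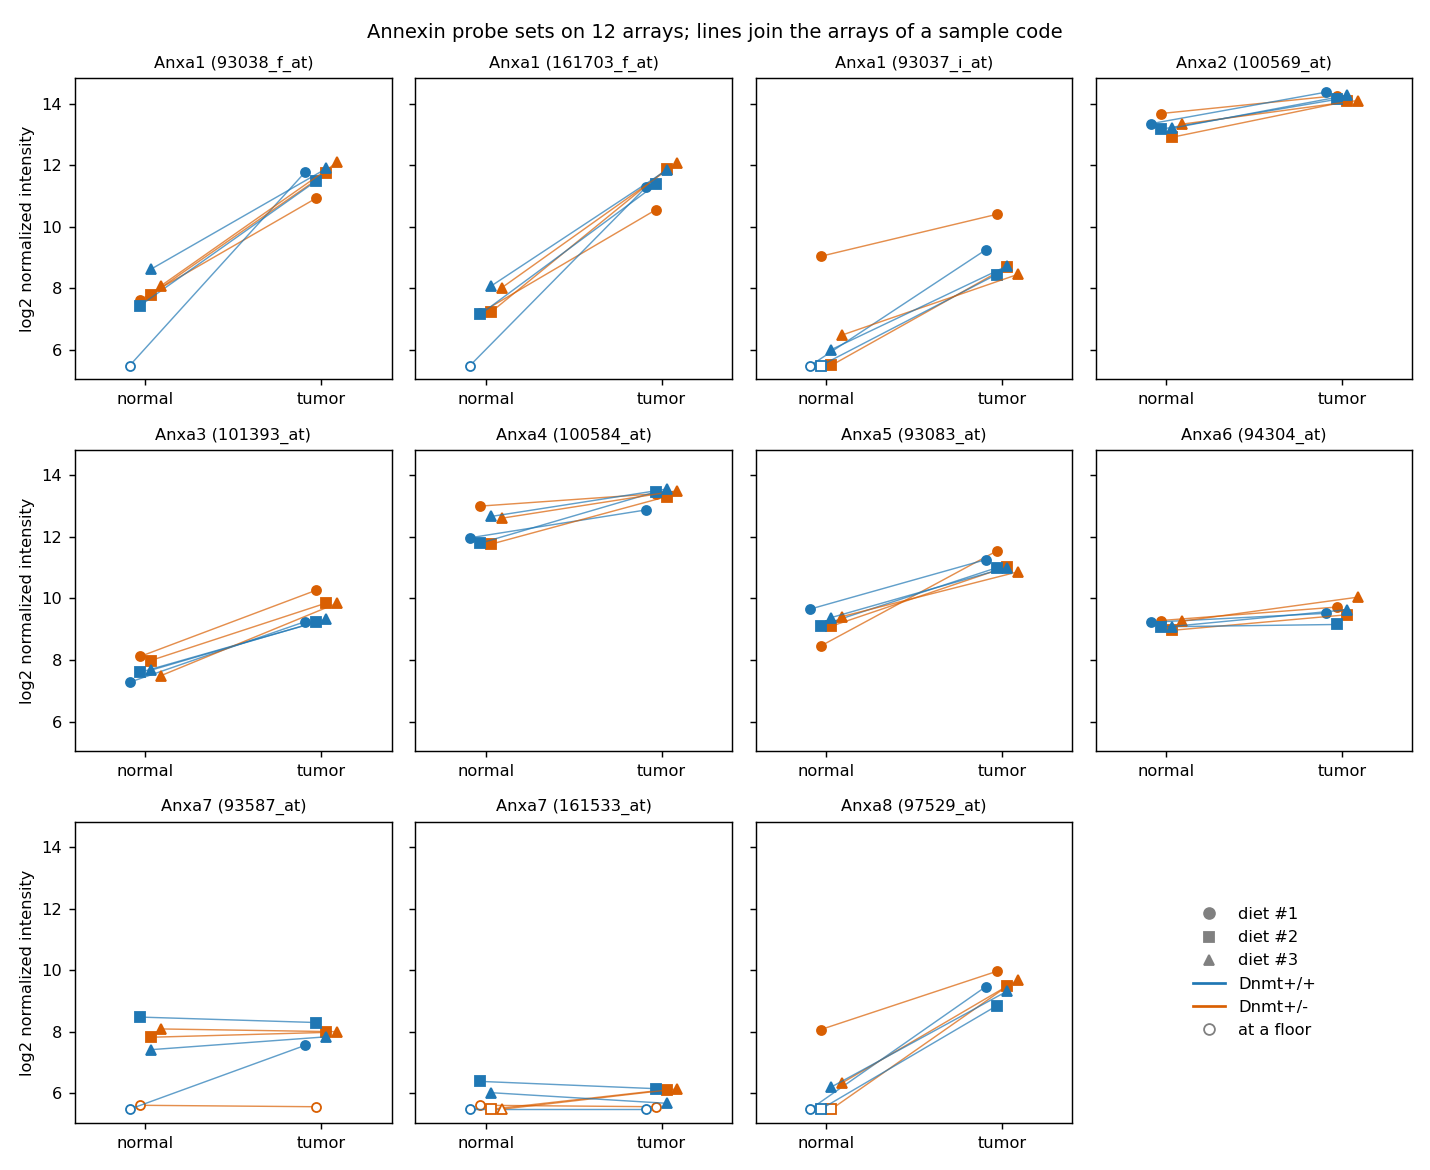
Level of each annexin probe set on the 12 arrays (y axis, log2 normalized intensity), normal at left and tumor at right, with a line joining the arrays of a sample code, shapes for diets, colors for genotypes and open points for arrays at a floor. The brightest Anxa1 probe set goes from between 5.48 and 8.61 in normal intestine to between 10.92 and 12.09 in tumor. For the brighter Anxa7 probe set the lines change by -0.18 to 0.42, except for 2.08 in diet #1 wild type. For the dim Anxa7 probe set they change by -0.35 to 0.66.

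Anxa1, which restrains inflammation and was first known as an inhibitor of phospholipase A2 and was higher in tumor by each of its 3 probe sets. By its brightest probe set, normal intestine ranged from 5.48 through a median of 7.70 to 8.61 (log2), and tumor from 10.92 through 11.76 to 12.09. All 6 tumor arrays were thus above all 6 normal arrays, with the lowest normal value, that of the diet #1 wild type array, at a floor. The difference was 4.15 ± 0.35 (log2, SE, n = 6 arrays per tissue), or 17.7-fold (limma adjusted p = 5.20e-05). In the deposited intensities of diet #2 this probe set rose from 265.4 to 4459.4 in Dnmt+/- and from 194.5 to 3725.8 in Dnmt+/+. In diet #3 the same probe set read 318.0 and 456.9 in normal intestine and 5340.0 and 4714.7 in tumor. Both diets without the format problem therefore showed the separation on the values as deposited.

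The second Anxa1 probe set went from 5.48, 7.21 and 8.07 (lowest, median and highest) in normal intestine to 10.56, 11.61 and 12.07 in tumor. The groups did not overlap, and the difference was 4.31 ± 0.27 (19.8-fold, limma adjusted p = 9.76e-06). By their suffix _f, the probes of both can match a family of similar sequences. The third Anxa1 probe set was dimmer, with 2 of 6 normal arrays at a floor. It ranged over 5.48, 5.75 and 9.04 in normal intestine and 8.44, 8.71 and 10.40 in tumor. The groups overlapped through 1 normal array, that of diet #1 Dnmt+/-, yet tumor was higher in 6 of 6 pairs (2.66 ± 0.44, limma adjusted p = 0.00169). Raising the floor to the share of values at 50 lowered this difference to 1.51, still past the threshold (limma adjusted p = 0.000862).

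Anxa2 is the annexin that pairs with S100a10 and binds plasminogen and tissue plasminogen activator at the cell surface. It lay in the top 1% of probe sets by mean level, at the 99.4th percentile. Normal intestine ranged over 12.90, 13.26 and 13.68 (lowest, median, highest) and tumor over 14.07, 14.20 and 14.37, with no overlap. The difference was 0.93 ± 0.10, or 1.91-fold (limma adjusted p = 0.000167), and it was 0.66 with median scaling. No array was at a floor, and the spread among tumors (SD 0.116) was below that among normal arrays (SD 0.255).

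Anxa5, the phosphatidylserine binder used to stain dying cells, ranged over 8.46, 9.25 and 9.65 in normal intestine. In tumor it ranged over 10.86, 11.02 and 11.54, above every normal array. The difference was 1.93 ± 0.20, or 3.81-fold (limma adjusted p = 0.000142). The code pairs ran from 1.45 to 3.08, and the highest was that of diet #1 Dnmt+/-, whose normal array was the lowest of the 6.

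Anxa4, a membrane-binding annexin of secretory and absorptive epithelia, was also among the brightest probe sets, at the 98.5th percentile. Its normal arrays ranged over 11.76, 12.29 and 13.00 and its tumor arrays over 12.87, 13.43 and 13.55, so the groups overlapped. The difference was 1.05 ± 0.20, or 2.07-fold (limma adjusted p = 0.00398). The code pairs differed by diet: 1.55 and 1.67 in diet #2, 0.89 and 0.89 in diet #3, and 0.40 and 0.90 in diet #1 (Dnmt+/- then Dnmt+/+). The diet #2 normal arrays were the lowest pair. They were also the arrays with markers of exocrine pancreas, whose summed level was 17.47 and 17.61 (log2) there and 10.62 to 11.96 on the other 10 arrays. Without the diet #2 arrays the Anxa4 difference was 0.78 (limma adjusted p = 0.0482). The tissue by diet interaction of Anxa4 did not pass (limma adjusted p = 0.513).

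Anxa6, a longer annexin with a duplicated core that works at endosomes and in membrane repair, differed least among those that rose. It ranged over 8.96, 9.16 and 9.28 in normal intestine and 9.15, 9.58 and 10.04 in tumor, with overlap at 1 tumor array, that of diet #2 Dnmt+/+. The difference was 0.44 ± 0.10, or 1.36-fold (limma adjusted p = 0.00905), with the tumor array higher in 6 of 6 pairs by 0.08 to 0.78.

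Anxa3, an annexin of neutrophil granules and of many epithelia, ranged over 7.28, 7.63 and 8.11 in normal intestine and 9.23, 9.59 and 10.26 in tumor. The groups did not overlap, and the difference was 1.94 ± 0.15, or 3.83-fold (limma adjusted p = 2.59e-05). Its code pairs lay between 1.63 and 2.35. Among the annexins with a difference above 1.5 it had the narrowest spread between pairs (SD 0.279).

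Anxa8, an annexin of stratified and lining epithelia linked to late endosomes, was near the lower limit in normal intestine, with 3 of 6 normal arrays at a floor. The normal arrays ranged over 5.48, 5.85 and 8.07 and the tumor arrays over 8.84, 9.47 and 9.96, with no overlap. The difference was 3.28 ± 0.31, or 9.72-fold (limma adjusted p = 8.56e-05). In the deposited intensities of diet #2, Anxa8 read 8.0 and 11.8 in normal intestine and 1007.9 and 665.8 in tumor (Dnmt+/- then Dnmt+/+). In diet #3 it read 93.8 and 79.1 against 1070.0 and 817.5. Because of the floor the size is uncertain: it was 2.14 with the highest floor tried and 3.55 with the lowest, past the threshold in both (limma adjusted p = 1.42e-06 and 0.000145).

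Anxa7, also called synexin, which promotes membrane fusion, was the annexin gene that did not pass. Its brighter probe set ranged over 5.48, 7.62 and 8.48 in normal intestine and 5.57, 7.91 and 8.30 in tumor. Its difference was 0.39 ± 0.32 (limma adjusted p = 0.385), with tumor higher in 3 of 6 pairs. The size came from 1 pair: diet #1 Dnmt+/+, whose normal array was at a floor, differed by 2.08 and the other 5 by -0.18 to 0.42. Without the diet #1 arrays the difference was 0.08 (limma adjusted p = 0.813). The dim Anxa7 probe set stood at the 24th percentile of mean level with 6 of 12 arrays at a floor and was not tested in the main comparison. With no filter on low values it differed by 0.11 (limma adjusted p = 0.75).

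The probe set shared by Anxa11, Gm2274 and Gm2260 ranged over 11.08, 11.75 and 12.12 in normal intestine and 11.67, 12.18 and 12.60 in tumor. It was higher in tumor in 6 of 6 pairs (0.45 ± 0.10, or 1.36-fold, limma adjusted p = 0.00917). With median scaling, under which the median of all probe sets shifted to -0.10, the difference was 0.11 and did not pass (limma adjusted p = 0.465). It did not pass without the diet #2 arrays either (0.45, limma adjusted p = 0.0787).

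**Figure D2:**
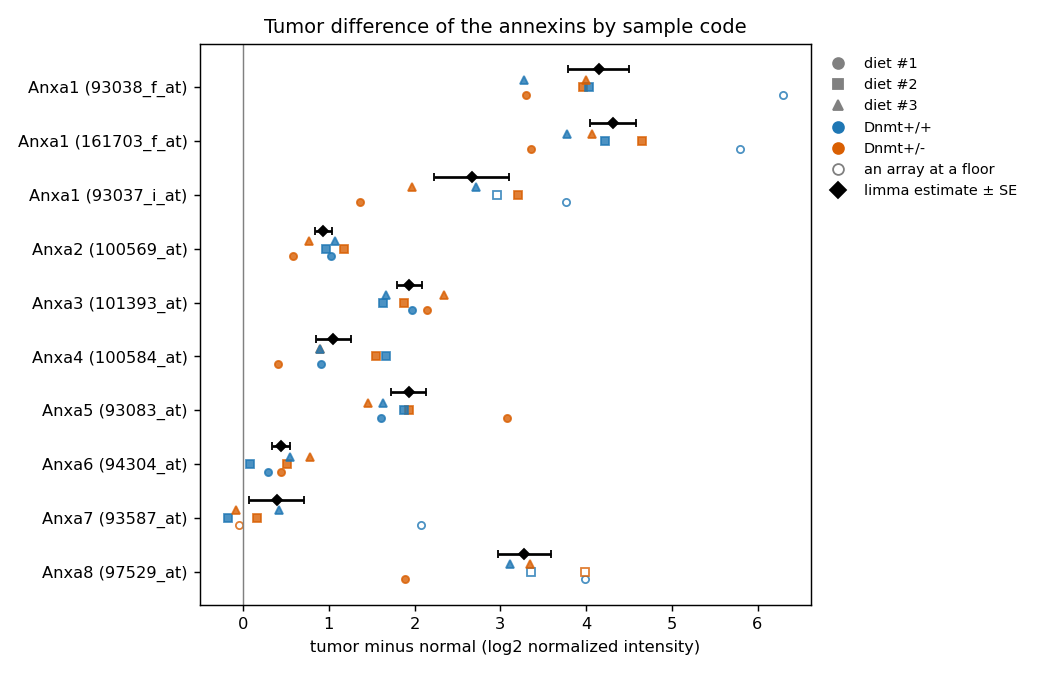
Tumor minus normal difference of each tested annexin probe set (x axis, log2 normalized intensity), with 1 point per sample code and the limma estimate ± SE as a black diamond. Every point lies right of 0 except 3 of the 6 for Anxa7, and the estimates run from 4.31 for the second Anxa1 probe set down to 0.44 for Anxa6 and 0.39 for Anxa7.

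The tissue differences of the 3 Anxa1 probe sets (4.31, 4.15 and 2.66) and of Anxa8 (3.28) were above those of the other annexins, but their order is not settled. Anxa8 and the third Anxa1 probe set had normal arrays at a floor. In diet #2 alone Anxa8 differed by 4.44 and the Anxa1 probe sets by 3.98, 4.42 and 3.77, from the brightest to the dimmest. In diet #3 alone the differences were 3.27 for Anxa8 and 3.71, 3.98 and 2.39 for the Anxa1 probe sets. The diet #2 normal arrays were both at a floor for Anxa8 and were those with the pancreas markers. Over all arrays, below Anxa1 and Anxa8 lay Anxa3 (1.94) and Anxa5 (1.93), then Anxa4 (1.05) and Anxa2 (0.93), then Anxa6 (0.44) and Anxa7 (0.39). Differences between neighbours were not tested. The count of annexin probe sets past the threshold was 8 in diet #2 fitted alone, 7 in diet #3 alone and 1 in diet #1 alone, each from 4 arrays. In those fits 1226, 636 and 48 of all probe sets passed, in the same order. In wild type arrays alone 7 passed and in heterozygous arrays alone 3, where 303 and 166 of all probe sets passed.

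Markers of other cell types moved with tissue too. Of 11 fibroblast markers tested 7 were higher and 0 lower in tumor, and their summed level was 12.71 to 13.02 in normal intestine and 13.44 to 13.77 in tumor (log2). All 6 mast cell markers tested were higher, with summed levels of 9.56 to 10.15 against 13.03 to 14.87. Of these, Mcpt2 and Cpa3 lay under the cutoff of 6.64 on every normal array and were tested only because of their tumor arrays. Mcpt4 and Fcer1a were too low to be tested. Of 4 neutrophil markers tested 1 was higher and 0 lower (10.22 to 10.77 against 10.49 to 11.24), and S100a8, S100a9, Ngp, Mpo and Cxcr2 were too low to be tested. Of 7 macrophage and monocyte markers 2 were higher, Cd14 and Lyz2 (0.90 and 0.66), and 2 lower, the defining markers Csf1r and Cd68 (-0.53 and -0.42). Adgre1 and Itgam were too low to be tested. The macrophage sum was 12.83 to 13.48 against 13.24 to 13.71, and its brightest marker was Lyz2 (11.63 to 12.81 against 12.48 to 13.15). Of 6 endothelial markers 1 was higher and 1 lower (9.82 to 10.61 against 10.18 to 10.73). Of 7 smooth muscle markers 0 were higher and 1 lower (13.67 to 14.71 against 13.70 to 14.38). The 1 T cell marker tested, Cd4, was lower (7.21 to 8.84 against 5.48 to 8.09, with 2 tumor arrays at a floor). The T cell sum, which includes markers too low to be tested, was 8.79 to 9.81 against 8.29 to 9.80. The epithelial sum was 16.21 to 16.51 in normal intestine and 16.82 to 16.95 in tumor, and of 8 pancreas markers tested 0 passed. The part of these cells in the annexin differences was not tested.

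Genes known to act with annexins were described from a list of 31, of which 25 had a probe set of their own and 19 were bright enough to test. Of the 19, 10 were higher in tumor, 2 were lower and 7 did not pass, with a median difference of 0.57 (log2). Over all probe sets tested 17.0% were higher and 16.5% lower. The partner list was chosen with earlier results of these data known. The other annexin measured, Anxa10, a stomach annexin, was higher (3.00 ± 0.43, limma adjusted p = 0.000811). It was at a floor on 5 of 6 normal arrays, so its mean passed the filter on low values through its tumor arrays. It fell below that filter, and was not tested, without the diet #1 arrays and in diet #2 or diet #3 alone. With no filter it passed (limma adjusted p = 0.00208). Its difference was 1.59 with the highest floor tried and 3.56 with the lowest, so its size is uncertain. Anxa9 and Anxa13 were not analysed here.

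S100 proteins bind annexins in pairs. S100a10, the partner of Anxa2, ranged from 12.34 to 12.97 in normal intestine and from 13.11 to 13.75 in tumor, with no overlap. Its difference was 0.77 ± 0.07, or 1.70-fold (limma adjusted p = 8.93e-05), and it was 0.46 with median scaling, still past the threshold (limma adjusted p = 0.00338). By a second and dimmer S100a10 probe set the difference was 0.13, which missed the threshold (limma adjusted p = 0.571). S100a6, which binds several annexins, had the smallest p of all 7453 probe sets, with 10.14 to 10.74 in normal intestine and 13.86 to 14.40 in tumor (3.74 ± 0.09, or 13.4-fold, limma adjusted p = 7.13e-08). S100a4 did not pass (0.68 ± 0.28, limma adjusted p = 0.0973), and S100a11 was not analysed here.

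Plat, the tissue plasminogen activator that docks on Anxa2, ranged from 7.59 to 9.27 in normal intestine and from 9.77 to 11.65 in tumor. It was 7.09-fold higher (2.82 ± 0.38, limma adjusted p = 0.000655), with 1.36 in diet #1 alone and 3.54 without the diet #1 arrays. Plg, plasminogen itself, was too low to be tested. On the Anxa1 side, Pla2g4a, the cytosolic phospholipase A2 that Anxa1 restrains, was 1.49-fold higher (0.57 ± 0.14, limma adjusted p = 0.0123) but did not pass without the diet #1 arrays (0.51, limma adjusted p = 0.0756) or without those of diet #2 (0.49, limma adjusted p = 0.138). Fpr2, the receptor of Anxa1, was at a floor on 10 of 12 arrays and was not tested.

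Among membrane repair genes 4 of 5 were higher and 0 lower. Capn2, the large subunit of m-calpain, was 7.46-fold higher (2.90 ± 0.37, limma adjusted p = 0.000458), with 2 normal arrays at a floor and 2.13 without the diet #1 arrays. Its normal arrays (5.48 to 7.35) averaged under the cutoff of 6.64 for testing, so it passed the filter through its tumor arrays. Capns1, the small subunit shared by calpains, was 2.00-fold higher (1.00 ± 0.10, limma adjusted p = 0.000127), and Ahnak, a giant scaffold that binds Anxa2 and S100a10, was 1.84-fold higher (0.88 ± 0.13, limma adjusted p = 0.000898) and differed by 0.58 with median scaling. Chmp4b, an ESCRT-III subunit, differed by 0.29 ± 0.07 (limma adjusted p = 0.0163) but by -0.08 with median scaling. For Capn1 the difference of 0.24 ± 0.13 missed the threshold (limma adjusted p = 0.198).

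Of 4 phosphatidylserine genes tested, 1 was higher and 1 lower. Mertk, a receptor that clears dying cells coated with phosphatidylserine, fell from 9.02 to 9.67 in normal intestine to 7.73 to 8.34 in tumor, with no overlap (-1.20 ± 0.11, limma adjusted p = 6.78e-05). Plscr1, a phospholipid scramblase, differed by 0.94 ± 0.28 (limma adjusted p = 0.0282), and this call was lost on leaving out any of 7 of the 12 arrays and with the sample code as a block (limma adjusted p = 0.0577), and the difference was 0.49 without the diet #2 arrays (limma adjusted p = 0.256). Mfge8 and Gas6 differed by 0.39 and -0.20 and did not pass, and Axl was too low to be tested. Of the EF-hand partners of Anxa7 and Anxa11, Pdcd6 (ALG-2) was lower by limma (-0.32 ± 0.10, adjusted p = 0.0377), a call lost on leaving out any of 7 arrays and with the code block (limma adjusted p = 0.0634), and Sri (sorcin) differed by 0.05 ± 0.15. Egfr and Rasa1 did not pass by their brightest probe sets (0.12 and 0.27), while a dimmer Egfr probe set differed by 1.32 (limma adjusted p = 0.0154). Src, Nr3c1 and Tsc22d3 were too low to be tested.

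**Figure D3:**
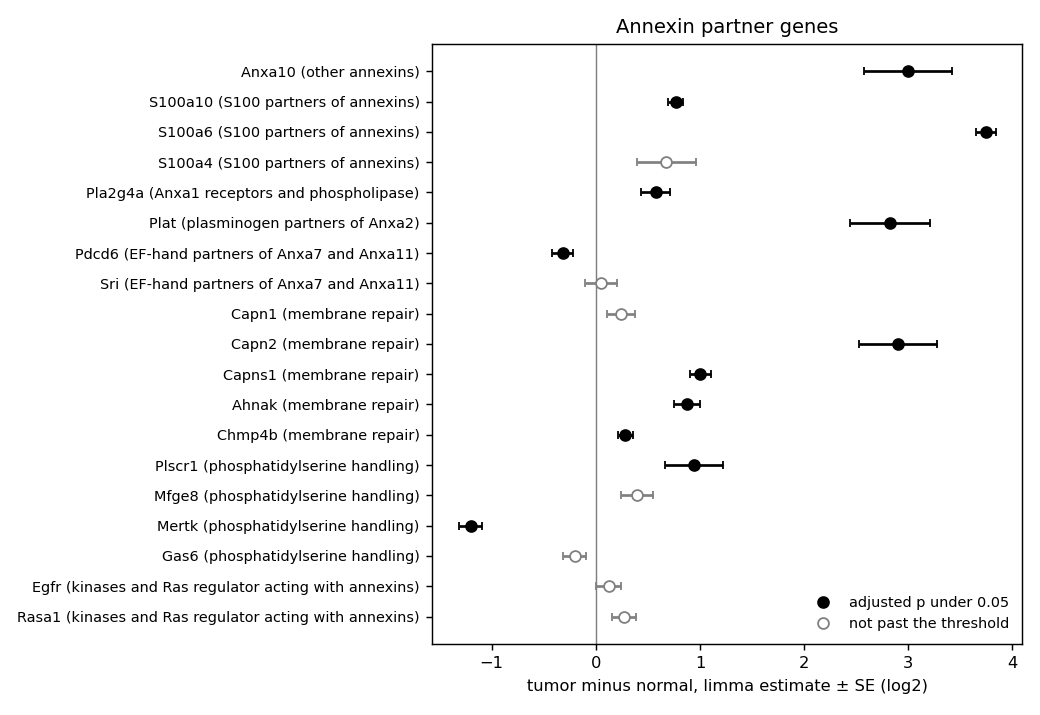
Tumor minus normal difference (x axis, log2, limma estimate ± SE) of the 19 tested annexin partner genes, by the brightest probe set of each, with filled points for adjusted p under 0.05. S100a6 (3.74), Anxa10 (3.00), Capn2 (2.90) and Plat (2.82) lie farthest right, and Mertk (-1.20) and Pdcd6 (-0.32) are the filled points left of 0.

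Over the 12 arrays, with each diet's mean removed, the annexins that rose were correlated, with Pearson's r from 0.694 (Anxa4 and Anxa6) to 0.965 (Anxa1 and Anxa8) between genes by their brightest probe sets. Anxa1 correlated with Anxa2 at 0.955, with Anxa3 at 0.944, with Anxa5 at 0.886, with Anxa4 at 0.868 and with Anxa6 at 0.784, and Anxa7 correlated with the other annexins at 0.09 to 0.44. These values describe 12 arrays that share the tissue difference, 6 codes and the array format, and carry no test. Among 5639 named genes, Anxa1 was most like Tceal9 (r = 0.988), Wdr92 (0.986) and Pls3, the actin bundler plastin 3 (0.982). Anxa2 was most like Pla2g2a, a secreted phospholipase A2 (0.990), Sh3bgrl2 (0.989) and the lamin gene Lmna (0.988). Anxa3 was most like the transcription factor gene Tgif1 (0.983), Prkab1 (0.979) and Tspan8 (0.974), and Anxa4 like Gata5 (0.967), Vnn1 (0.964) and F3, tissue factor (0.963). Anxa5 was most like the actin-binding Tmsb4x (0.994), the mast cell chymase gene Cma2 (0.984) and Tmem176a (0.982). Anxa6 was most like Prss32 (0.964), Smim14 (0.961) and the cortactin gene Cttn (0.959). Anxa8 was most like Lrg1 (0.995), Tgif1 (0.980) and Wls, which carries Wnt proteins to the surface (0.980). For Anxa7 the nearest were Hdac3 (0.962), Wdr74 (0.960) and Atn1 (0.952), which fell to 0.714, 0.692 and 0.627 without the diet #1 arrays.

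The genotype comparison asked whether Dnmt+/- tissue differs from Dnmt+/+ tissue. By limma 0 of 10 annexin probe sets passed, and over all probe sets 0.0134% (1 of 7453) did. At an unadjusted p under 0.05 there were 2 annexin probe sets, Anxa3 and Anxa8, and 497 of all probe sets. Estimates ran from -0.33 ± 0.29 for Anxa7 to 0.86 ± 0.41 for the third Anxa1 probe set (Dnmt+/- minus Dnmt+/+, log2, SE, n = 6 arrays per genotype). Without the diet #1 arrays these 2 were -0.03 and 0.18. The brightest annexins, Anxa2 and Anxa4, differed by -0.02 ± 0.09 and 0.21 ± 0.19, the brightest Anxa1 probe set by 0.26 ± 0.31 and Anxa6 by 0.17 ± 0.09.

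Anxa3 had the smallest genotype p of the family, with a difference of 0.53 ± 0.14, 1.45-fold higher in Dnmt+/- (limma adjusted p = 0.719). In tumor the Dnmt+/- arrays read 10.26, 9.85 and 9.84 and the Dnmt+/+ arrays 9.25, 9.23 and 9.33 in diets #1, #2 and #3, so the genotypes did not overlap there. Such a split with Dnmt+/- higher in tumor was found for 2 of 10 annexin probe sets, Anxa3 and Anxa8, and for 1.93% of all probe sets. In normal intestine the Dnmt+/- arrays read 8.11, 7.98 and 7.50 and the Dnmt+/+ arrays 7.28, 7.60 and 7.67, which overlapped. The tissue by genotype interaction of Anxa3 was 0.37 ± 0.31 and did not pass (limma adjusted p = 1). Without the diet #1 arrays the genotype difference was 0.34 (limma adjusted p = 0.496).

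Anxa8 differed by 0.70 ± 0.28 (limma adjusted p = 0.719). The Dnmt+/- array was higher by 0.49, 0.63 and 0.36 in the tumors of diets #1, #2 and #3. In normal intestine the differences were 2.59 in diet #1, where the wild type array was at a floor, 0 in diet #2, where both arrays were, and 0.13 in diet #3. Without the diet #1 arrays the estimate was 0.29 (limma adjusted p = 0.594). The normal wild type array of diet #1 was also at a floor for each of the 3 Anxa1 probe sets, where the Dnmt+/- array was higher by 1.71, 2.14 and 3.55.

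**Figure D4:**
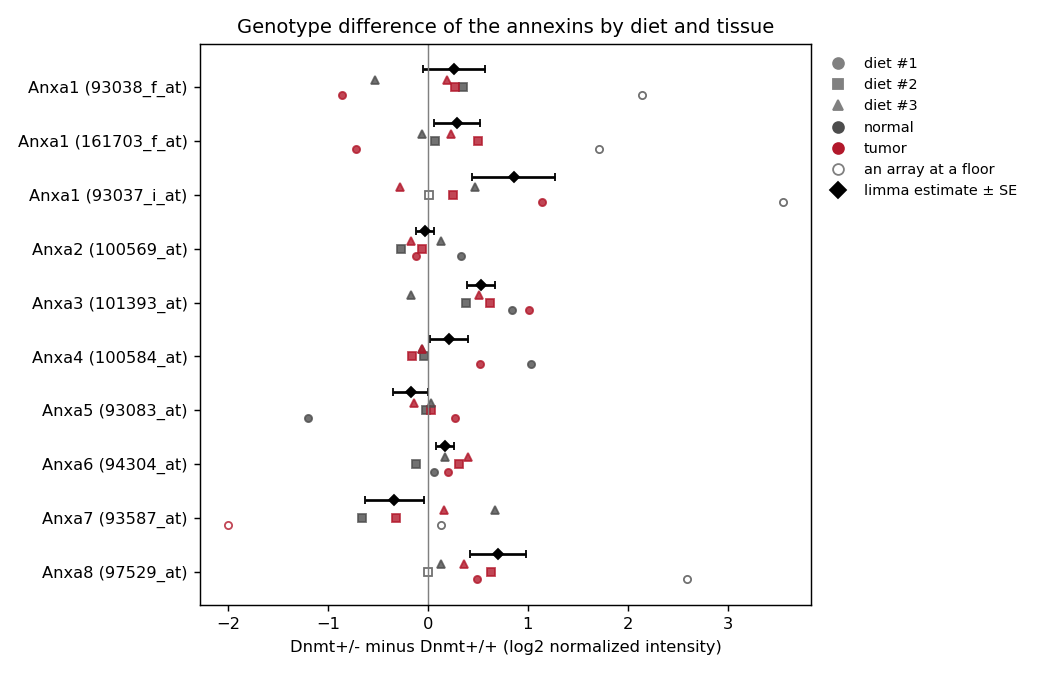
Dnmt+/- minus Dnmt+/+ difference of each tested annexin probe set (x axis, log2 normalized intensity), with 1 point per diet and tissue, gray for normal and red for tumor, open where an array was at a floor, and the limma estimate ± SE as a black diamond. Most points lie near 0, and the open diet #1 points reach 3.55 for Anxa1. All 3 tumor points lie right of 0 for Anxa3 (0.51, 0.63 and 1.01), Anxa6 (0.20, 0.32 and 0.41) and Anxa8 (0.36, 0.49 and 0.63). For Anxa2 all 3 lie left of 0 (-0.115, -0.062 and -0.169). The other probe sets have tumor points on both sides of 0, and 0 of 10 passed for genotype. The share of all probe sets with a one-sided set of tumor points was not counted, so the one-sided sets here cannot be judged against it.

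The interaction tests asked whether the tumor difference depends on genotype or diet. For tissue by genotype 0 of 10 annexin probe sets passed (limma adjusted p = 1 for each), as did 0 of 7453 in all, with 0 of the annexins and 171 of all probe sets at an unadjusted p under 0.05. Estimates ran from -0.97 ± 0.96 for the third Anxa1 probe set to 0.45 ± 0.41 for Anxa5. For tissue by diet 0 of 10 passed (limma adjusted p from 0.513 to 0.93, and 0 at an unadjusted p under 0.05), against 1.34% of all probe sets.

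For diet, the F test over 3 diets called 3 of 10 annexin probe sets (the second Anxa1 probe set, Anxa6 and the brighter Anxa7 probe set), against 61.7% of all probe sets, and this comparison cannot be told apart from the file format of diet #1. Anxa7 had 3 of 4 diet #1 arrays at a floor and was higher in diet #2 than in diet #1 by 2.09 ± 0.36 (limma adjusted p = 0.00107), a contrast that 5 of 10 annexin probe sets and 54.3% of all probe sets passed. Between diets #3 and #2, which share a format, 0 of 10 passed by limma, against 9.07% of all probe sets. At an unadjusted p under 0.05 there was 1, Anxa6, which was higher in diet #3 by 0.34 ± 0.11 (limma adjusted p = 0.0868). Its 2 arrays averaged 9.02 in diet #2 and 9.18 in diet #3 in normal intestine, and 9.31 and 9.84 in tumor. Anxa4 differed by 0.50 ± 0.23 between the same diets (limma adjusted p = 0.214), with normal means of 11.78 and 12.63 and tumor means of 13.39 and 13.52. In this contrast the diet #2 normal arrays also carried the exocrine pancreas markers, with summed levels of 17.47 and 17.61 (log2) against 10.96 and 10.62 in diet #3. Diet and that signal cannot be told apart in normal intestine.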

How the data were processed

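RNA of 12 samples was hybridised to 1 Affymetrix MG_U74Av2 array each, per the labels. The authors deposited 1 linear intensity per probe set for 12488 probe sets, and the software, scaling and background correction behind that intensity are not given in the sources used here. Gene symbols came from the platform annotation, in which 10833 of 12422 probe sets have 1 symbol, 396 several and 1193 none.

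Here 66 control probe sets were removed, intensities were quantile normalized, values under the 20th percentile were raised to it (44.8) and log2 was taken. Probe sets in the lowest 40% by mean were left out, and each of the 7453 others was tested, so genes with several probe sets were not collapsed. Because so many diet #1 values tie at 50, a value just above 50 there is placed far above it after normalization, and diet #1 differences of dim genes include that step. Each model held terms for tissue, diet and genotype and was fitted to all 12 arrays in limma 3.58.1 (R 4.3.3), with Benjamini-Hochberg adjustment over all probe sets and a threshold of 0.05. Genotype, diet and the interactions had the sample code as a random block (correlation -0.15, -0.15 for tissue by genotype and 0.04 for tissue by diet). Within every code, the normal and tumor arrays' departures from their tissue's mean had correlations of 0.477 to 0.685, and arrays of a code also share diet, format and genotype. With diet and genotype also removed the correlations were -0.555 to -0.375. That removal itself pushes them below 0 with so few codes, so they cannot tell whether a code is a matched pair. The codes come from the titles. The fits were tested on simulated data.

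The genes named were all members, the listed partners past the tissue threshold and the 3 genes most correlated with each member. The members, partner genes, cell type markers and promoter motifs were chosen with earlier results of these data known. Alternatives were other scalings, floors, filters, variances and blocks, each array left out, and single diets or genotypes. A floor at the share of values at 50 was added after seeing the data. The number of arrays limits the precision.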

Additional observations from a re-analysis of the deposited data

Results flagged for a closer look

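In 24 groups of 6 arrays (each of the 11 annexin probe sets and the shared one, in each tissue), 5 held an array far from the other 5 by Dixon's criterion, which chance meets in about 1 of 20 groups. All 5 were diet #1 arrays, whose files have the floor at 50. In normal intestine, the second Anxa1 probe set was lowest in diet #1 Dnmt+/+ at 5.48, an array at the floor, against 7.16 for the next. The third Anxa1 probe set was highest in diet #1 Dnmt+/- at 9.04 against 6.48, and Anxa8 was highest in the same array at 8.07 against 6.34. In tumor, Anxa4 was lowest in diet #1 Dnmt+/+ at 12.87 against 13.31, and the brighter Anxa7 probe set was lowest in diet #1 Dnmt+/- at 5.57, an array at the floor, against 7.56.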

How the results depend on the processing

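The tissue differences of the annexins kept their direction and their side of the threshold in 235 of 235 values over other scalings, floors, filters and variances, without diet #1 or diet #2, with the code block and with each array left out. The count past the threshold was 9 of 10 in these, except 7 of 7 with the lowest 60% left out, 7 of 8 with 1 probe set per gene and 9 of 11 without a filter. It fell to 1 in diet #1 alone and to 3 in Dnmt+/- arrays alone, fits with 4 and 6 arrays. Across all probe sets the tissue count was 2497, against 1439 without diet #2. The brighter Anxa7 probe set turned to -0.0056 in diet #2 alone and Chmp4b to -0.0753 with median scaling. The size for Anxa8 ran from 2.14 to 4.44. The median of all probe sets shifted to -0.10 with median scaling and to 0.13 on the values as deposited.

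With the sample code as a fixed replicate block the annexin tissue count stayed at 9 and Pdcd6 and Plscr1 lost their calls (adjusted p = 0.0634 and 0.0577). The other tissue calls of the annexins, the shared probe set and the partners' brightest probe sets did not change with the block, and the cell type markers and dimmer partner probe sets were not refitted with it. With the code left out of the genotype and diet fits, 0 annexin genotype calls and 2 diet calls were made.

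The diet count of 3 became 7 with median scaling, 8 on deposited values, 5 and 7 with floors at the 5th and 40th percentiles, 7 with the floor at the share of values at 50 and 6 with trended robust variances, and ran from 2 to 7 with an array left out. Diet #3 against diet #2 gave 1 call with median scaling and 1 with that added floor. The tissue by diet count ran from 0 to 2 with an array left out, 2 without the diet #1 Dnmt+/+ normal array. Genotype calls over all probe sets ran from 0 to 4, and the annexin count was 0 in each. The cause was not tested. Signals at a floor limit the third Anxa1 probe set, Anxa7 and Anxa8.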
